A study of Mus musculus with 24 samples.

Results

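The mitosis and G2/M genes described here are 36 genes whose products carry a cell from late G2 through chromosome segregation to the separation of the daughter cells. They were chosen by symbol, and each symbol matched 1 gene among the 48526 genes in the files. All 36 passed the filter on low counts, which kept 14560 genes for testing. Messenger RNA was sequenced from T cells, labelled CD8+, of OT-1 mice, a transgenic strain with a T cell receptor for an ovalbumin (OVA) peptide. Spleen cells of these mice were cultured with the peptide at 2 µg/mL, with or without an agonist of a Toll-like receptor (TLR) given 1 h earlier, and T cells were purified afterwards by magnetic negative selection. The agonist was therefore present with all the spleen cells of the culture, not with T cells alone.

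There were 6 groups of 4 libraries: TLR7 agonist plus peptide, TLR2 agonist plus peptide, and peptide alone (OVA), each at 72 h and at 24 h. Every group received peptide, and no unstimulated library was analysed here. For TLR2, a receptor for bacterial lipopeptides, the labels list Pam3CSK4 at 300 ng/mL. For TLR7, a receptor for single-stranded RNA, they list both gardiquimod at 3 µg/mL and R848 at 10 µg/mL, without saying which one these libraries received. The labels give no age for the mice, and they do not state that replicates came from separate mice or cultures. The p-values therefore measure the spread between these libraries, which may be technical.

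Entry into mitosis is driven by the kinase CDK1 bound to cyclin A or cyclin B, and exit follows when the anaphase-promoting complex (APC/C) marks cyclin B for destruction. Most genes of this set are transcribed late in the cycle: in human and mouse cells the MYBL2-MuvB complex and FOXM1 switch them on through a promoter element called the cell cycle genes homology region (CHR), often beside CCAAT boxes bound by NF-Y, and the DREAM complex holds the same promoters down in resting cells. Naive CD8 T cells rest until they meet antigen and then divide fast for several days, so these messages are commonly read as a measure of proliferation. In bulk RNA, fewer cells in G2 or mitosis and less RNA of these genes per cell cannot be told apart.

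Library totals were 10.5 to 27.1 M (mega) counts, and a count of 3 was worth 0.110 to 0.286 CPM (counts scaled to library size) depending on the library, which covers counting error only. The first principal component of all genes tested, which held 60.2% of the variance, put 24 h libraries at one end and 72 h libraries at the other. On this component 8 libraries lay in the middle: TLR2 72 h replicates 1, 3 and 4, OVA 72 h replicate 4, TLR7 24 h replicates 3 and 4, and OVA 24 h replicates 1 and 3. They go by their labels here, and results are given with and without them; the other 16 are called clear. The same 8 were in the middle when 204 cell-cycle genes were left out of the component. In 5 libraries the total was under 15 M counts: TLR7 72 h replicates 1 and 2, TLR7 24 h replicate 2, TLR2 24 h replicate 4 and OVA 24 h replicate 4. The labelled cell type was checked against its markers: Cd8a was at 457 to 904 CPM in every library and Cd4 at 0 to 2.00 CPM. Of the other CD4 T cell markers, Foxp3 reached 1.34 CPM, Cd40lg 21.8 CPM and Zbtb7b 33.0 CPM. Summed macrophage and monocyte markers were highest in OVA 72 h replicate 3, at 66.3 CPM, and OVA 24 h replicate 2, at 60.0 CPM. Neutrophil markers were also highest there, at 27.5 and 107 CPM. The part of these cells in the results below was not tested. B cell messages were left in part of the libraries, and their summed level over 10 markers was 6.29 to 10.8 CPM in TLR7 72 h, 7.81 to 92.5 CPM in TLR2 72 h, 5.58 to 45.0 CPM in OVA 72 h, 26.3 to 49.5 CPM in TLR7 24 h, 120 to 159 CPM in TLR2 24 h and 94.4 to 240.1 CPM in OVA 24 h. B cell markers thus differed with time and between agents; the part of B cells in the results below was not tested.

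Promoter windows of the set were read from RefSeq (build GRCm38.p6), from 250 bases before to 50 bases after the annotated start, and were found for 30 of the 36 genes. Ect2 and Prc1 had 2 overlapping windows each, which made 32 windows, and shares are given by gene. A CHR (TTTGAA or TTCGAA, on either strand) was present for 23 of the 30 genes (76.7%), against 21.7% of all 27025 genes with a window and 16.4% of the 9743 tested genes with a window. A CCAAT box (CCAAT, or ATTGG on the other strand) was present in 23 of the 30 (76.7%), against 41.1% of all genes. Both stood in the same window for 20 genes (66.7%), against 8.61% of all genes and 7.11% of the tested ones. An E2F element (TTTCCCGC, TTTGGCGC, TTTCGCGC or TTTGCCGC, on either strand) was found for 1 gene, Cdk1 (3.33%). That share is near the 2.61% of all genes and 4.74% of the tested ones. Of 40 G1/S and replication genes 45.0% held an E2F element and 25% a CHR. In 4 windows, those of Birc5, Mad2l1, Nuf2 and Nusap1, none of the motifs was found. Of the 35 CHR matches 26 lay between 100 bases before and 50 bases after the start, and so did 44 of the 62 CCAAT matches. These totals are over all 32 windows, so sites of Ect2 and Prc1 count in both of their windows. These are matches of letters and not measured binding.

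The promoters of 5 genes are printed, since the results below turn on these genes. Among the clear libraries, Ccnb2, Cenpa and Ube2c had the largest ratio of median 72 h to median 24 h level in the set. Mad2l1 and Cdk1 had the lowest. Sequences run 5′ to 3′ along the gene's own strand, with CHR and CCAAT matches of either strand in capitals; in the Ube2c window the run CCAATTGG is a CCAAT that overlaps an ATTGG.
Ccnb2 (cyclin B2, chr9:70421505-70421804, minus strand): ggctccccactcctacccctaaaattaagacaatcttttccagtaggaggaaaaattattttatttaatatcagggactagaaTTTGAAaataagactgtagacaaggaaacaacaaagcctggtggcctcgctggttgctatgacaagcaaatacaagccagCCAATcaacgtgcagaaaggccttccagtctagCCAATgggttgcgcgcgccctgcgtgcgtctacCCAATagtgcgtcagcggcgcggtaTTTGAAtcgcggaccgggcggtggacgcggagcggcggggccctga
Cenpa (centromeric histone, chr5:30666636-30666935, plus strand): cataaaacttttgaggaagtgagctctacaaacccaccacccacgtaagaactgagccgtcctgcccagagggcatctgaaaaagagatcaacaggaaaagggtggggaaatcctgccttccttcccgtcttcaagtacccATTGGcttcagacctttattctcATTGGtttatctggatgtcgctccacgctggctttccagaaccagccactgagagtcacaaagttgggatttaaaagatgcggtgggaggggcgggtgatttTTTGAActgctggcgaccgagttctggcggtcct
Ube2c (ubiquitin-conjugating enzyme of the APC/C, chr2:164769679-164769978, plus strand): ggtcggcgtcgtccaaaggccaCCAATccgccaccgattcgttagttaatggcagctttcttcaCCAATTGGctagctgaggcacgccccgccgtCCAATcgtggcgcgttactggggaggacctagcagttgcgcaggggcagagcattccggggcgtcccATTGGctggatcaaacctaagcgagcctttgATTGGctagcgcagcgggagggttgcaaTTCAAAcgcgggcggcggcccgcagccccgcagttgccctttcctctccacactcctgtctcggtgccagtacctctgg
Cdk1 (mitotic kinase, chr10:69352863-69353162, minus strand): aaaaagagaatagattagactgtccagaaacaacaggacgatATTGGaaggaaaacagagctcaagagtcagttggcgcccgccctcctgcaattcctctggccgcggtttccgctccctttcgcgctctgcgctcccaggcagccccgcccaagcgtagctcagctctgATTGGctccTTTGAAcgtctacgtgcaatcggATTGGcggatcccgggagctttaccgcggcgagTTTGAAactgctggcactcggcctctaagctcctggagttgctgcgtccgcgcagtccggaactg
Mad2l1 (checkpoint protein MAD2, chr6:66534971-66535270, plus strand): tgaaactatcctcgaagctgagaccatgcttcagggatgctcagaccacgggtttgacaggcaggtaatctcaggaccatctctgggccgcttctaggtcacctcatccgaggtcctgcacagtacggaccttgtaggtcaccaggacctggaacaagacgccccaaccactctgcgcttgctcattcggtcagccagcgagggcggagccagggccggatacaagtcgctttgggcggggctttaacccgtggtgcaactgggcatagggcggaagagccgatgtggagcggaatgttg
The Ccnb2 window held 2 CHR and 3 CCAAT matches, the Cenpa window 1 and 2, and the Ube2c window 1 and 6. The Cdk1 window held 2 and 3, as many as the Ccnb2 window, besides its E2F match, whose letters are left in lower case. The Mad2l1 window held none of the motifs.

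**Figure D1:**
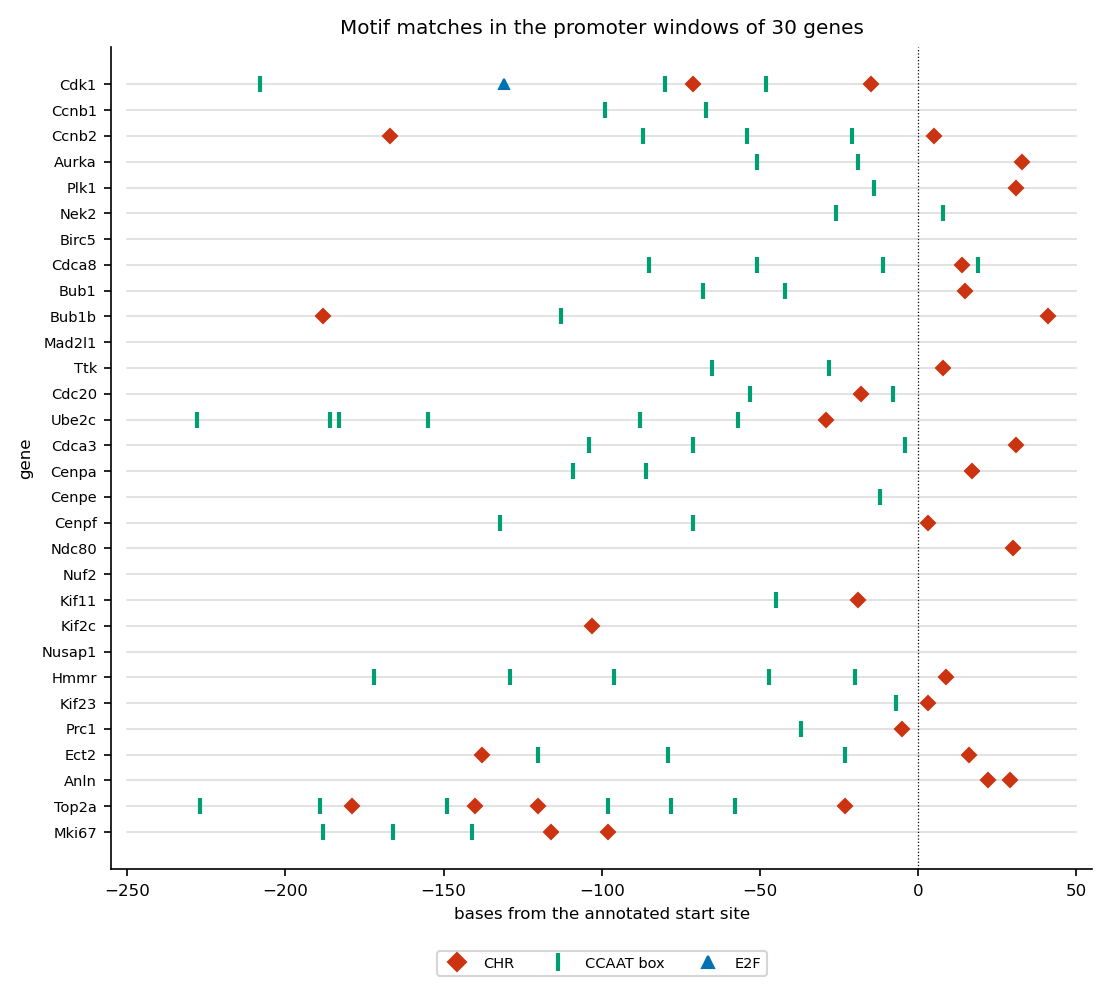
Positions of CHR, CCAAT and E2F matches (symbols) in the promoter windows of the 30 genes with a RefSeq window, in bases from the annotated start on the horizontal axis and 1 gene per row. For Ect2 and Prc1, which have 2 overlapping windows each, 1 window is shown. CHR matches gather near the start and CCAAT matches upstream of it, with median positions of -5 and -69.5 over all 32 windows.

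Across the 24 libraries the 36 genes made up 0.0689% to 0.607% of all counts. Their summed level was 3045 to 4081 CPM in TLR7 72 h, 2116 to 3009 CPM in TLR2 72 h, 2907 to 5927 CPM in OVA 72 h, 715 to 3370 CPM in TLR7 24 h, 1846 to 2812 CPM in TLR2 24 h and 1467 to 2648 CPM in OVA 24 h. As a mean of log2 CPM over the 36 genes, the score was 6.13 ± 0.17 in TLR7 72 h, 5.55 ± 0.22 in TLR2 72 h, 6.29 ± 0.40 in OVA 72 h, 4.55 ± 1.18 in TLR7 24 h, 5.10 ± 0.21 in TLR2 24 h and 5.22 ± 0.54 in OVA 24 h (SD, n = 4 each). All 3 groups at 72 h had a higher mean score than any group at 24 h, but libraries overlapped. The TLR7 24 h libraries were the most scattered, at 3.51, 3.67, 6.01 and 5.01 in replicates 1 to 4: the first 2 were the lowest of all 24 libraries, and the other two are middle libraries. In the order of the group means (OVA 72 h, TLR7 72 h, TLR2 72 h, OVA 24 h, TLR2 24 h, TLR7 24 h), TLR7 72 h and TLR2 72 h were the only neighbours that differed by more than the larger of their SDs.

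**Figure D2:**
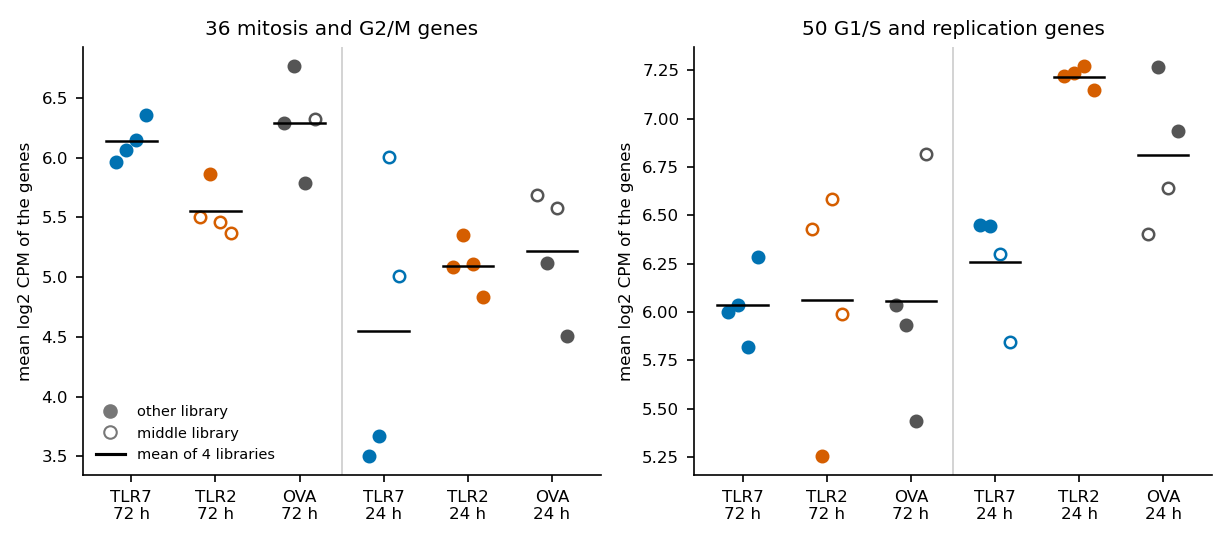
Mean log2 CPM over the 36 mitosis and G2/M genes and over 50 G1/S and replication genes, 1 point per library, by group; the line is the mean of 4 libraries and open circles are the 8 middle libraries. The mitotic score is highest at 72 h and spreads from 3.51 to 6.01 in TLR7 24 h, whereas the G1/S score is highest in TLR2 24 h, at 7.22 ± 0.05.

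Per kilobase of exon, the most abundant messages were Top2a, the topoisomerase that untangles sister chromatids, at a mean of 59.7 CPM per kilobase, Mki67, the Ki-67 proliferation marker, at 35.1, and Ccna2, cyclin A2, at 28.8. The least abundant were Anln, the cytokinetic ring protein anillin, at 2.18 and Cdc25c, a phosphatase that activates CDK1, at 2.02. Range differed far more than level. Ccnb2 ran over 78.7-fold between its lowest and highest library, whereas Mad2l1 ran over 3.43-fold and Cdk1 over 4.26-fold. The lowest single count of a member in any library was above the floor of 3, since even Ccnb2 had 14 counts in its lowest library. In all, 10 members share exon bases with a gene on the opposite strand, and the sources used here do not give the strand of counting, so a part of their counts could belong to the neighbour. The shared part was 29.3% of exon length for Kif20a (with Cdc23), 22.8% for Ube2c (Tnnc2), 12.7% for Cdc25c (Gm3550), 12.5% for Ccna2 (Exosc9) and 11.1% for Prc1 (Rccd1), and 2.84% to 7.09% for Plk1, Nek2, Cdca8, Nusap1 and Cdc20.

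**Figure D3:**
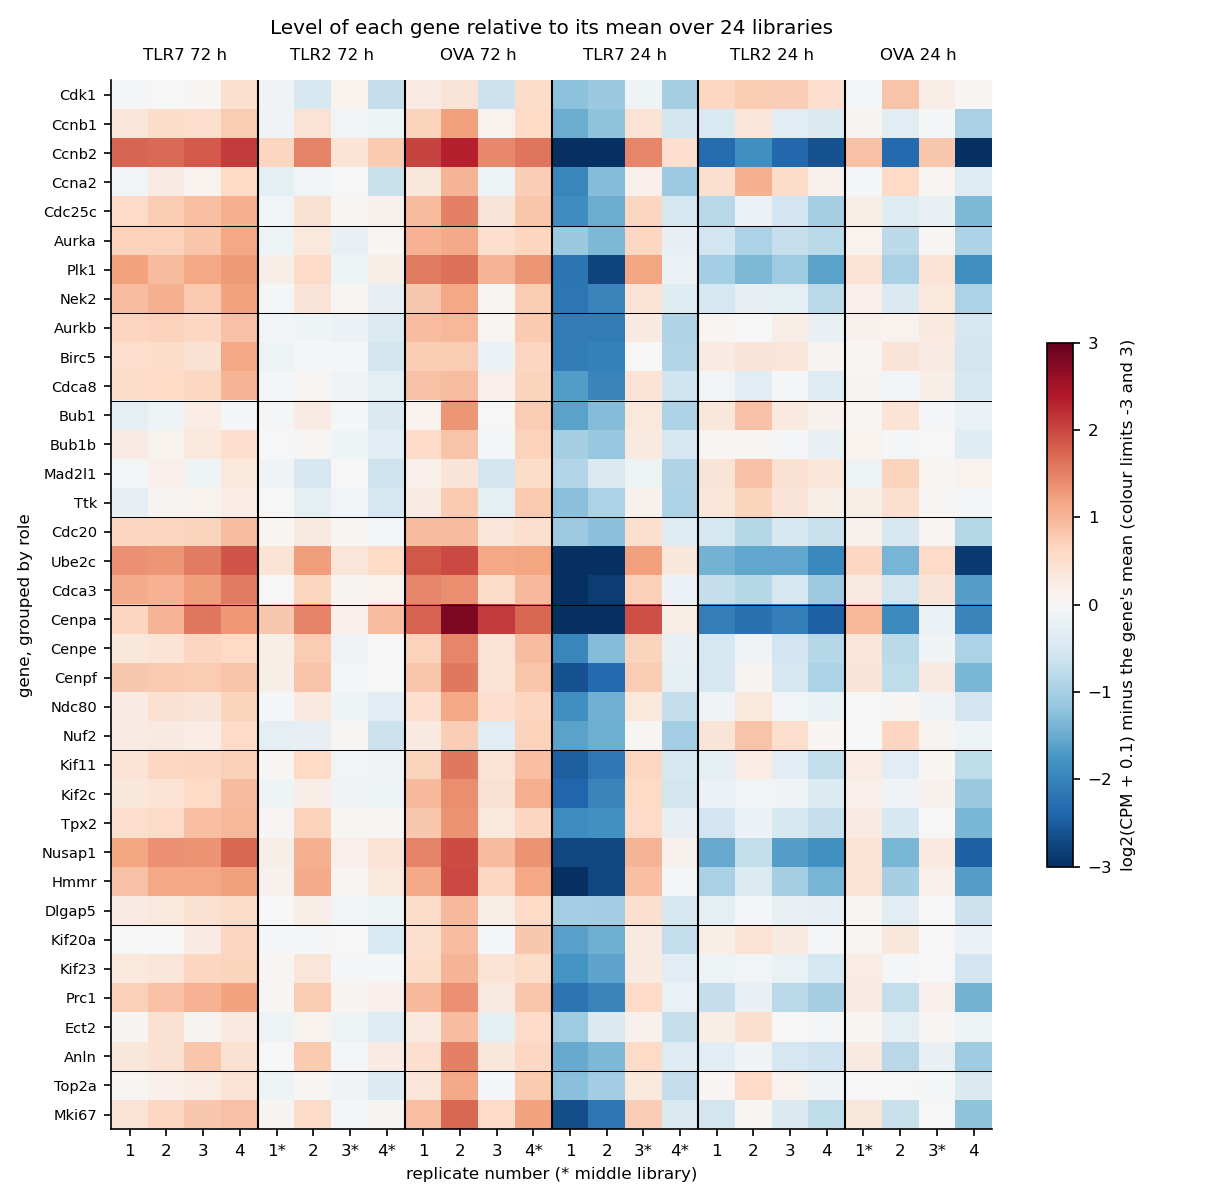
Level of each of the 36 genes in each library (columns, grouped; an asterisk marks the middle libraries) as log2(CPM + 0.1) minus the gene's mean over 24 libraries, with genes in rows by role. The 2 clear TLR7 24 h libraries, replicates 1 and 2, are low for nearly every gene. Among the clear libraries, Ccnb2, Cenpa, Ube2c, Nusap1 and Plk1 differ most between 24 h and 72 h.

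Time in culture was compared within each agent, at 72 h against 24 h. In TLR7-treated cells 28 of the 36 genes rose (edgeR's quasi-likelihood test, adjusted p under 0.05), 0 fell, and the median log2 fold change was 1.18. Of all genes tested 19% rose and 24.2% fell, so the share of the set was well above the background. Every one of the 36 had a positive log2 fold change, but in only 16 were all 4 libraries at 72 h above all 4 at 24 h, against 21.9% of all genes; TLR7 24 h replicate 3 lay at the 72 h level and replicate 4 between the times. All 5 genes of the central spindle and cytokinesis rose, as did all 3 of the chromosomal passenger complex, 5 of 6 spindle motors and microtubule proteins, 4 of the 5 genes of CDK1 and its cyclins, 3 of 4 checkpoint genes, 2 of 3 mitotic kinases, 2 of 3 APC/C genes, 2 of 5 kinetochore genes, and both Top2a and Mki67. The count was 36 without the 8 middle libraries, with a median of 2.38, where 26.7% of all genes rose. It was 13 without TLR7 24 h replicate 1 (10.1% of all genes), 11 without TLR7 24 h replicate 2 (9.47%), 18 without TLR7 72 h replicate 4 (14.9%) and 0 without the 5 shallow libraries (0.0134%), which leaves TLR7 72 h with 2 libraries.

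Birc5 encodes survivin, the targeting subunit of the chromosomal passenger complex. It was at 69.9, 70.1, 65.8 and 107 CPM in TLR7 72 h, against 11.1, 11.6, 48.0 and 25.9 CPM in TLR7 24 h, with a log2 fold change of 1.69 (SE 0.34, adjusted p = 0.00147). The 4 libraries at 72 h were all above the 4 at 24 h. Aurkb, the Aurora B kinase of the same complex, was at 71.6, 74.0, 70.7 and 84.4 CPM in TLR7 72 h, against 10.7, 10.7, 55.1 and 24.5 CPM in TLR7 24 h, and its log2 fold change was 1.57 (SE 0.36, adjusted p = 0.00270). Again the groups did not overlap, and at 24 h replicates 1 and 2 stood apart from replicates 3 and 4. Cdca8, borealin, another protein of the complex, rose by 1.36 (SE 0.34, adjusted p = 0.00438) on the log2 scale. Cdca3, which promotes mitotic entry through ubiquitin-dependent loss of WEE1, was at 83.4, 78.9, 91.1 and 112 CPM in TLR7 72 h, against 4.31, 5.25, 62.7 and 34.1 CPM in TLR7 24 h, the largest log2 fold change past the test, 1.77 (SE 0.56, adjusted p = 0.0169). Nek2, a kinase that splits the centrosomes, rose by 1.64 (SE 0.41, adjusted p = 0.00447). Prc1, which bundles the microtubules of the central spindle, was at 73.0, 82.3, 92.1 and 103 CPM in TLR7 72 h, against 9.67, 11.2, 66.0 and 38.6 CPM in TLR7 24 h, and rose by 1.48. The other cytokinesis genes rose too: Kif23, the central spindle kinesin, by 1.11, Kif20a, the kinesin that moves the passenger complex to the midzone, by 0.93, Anln by 0.94 and Ect2, which activates RhoA at the furrow, by 0.68.

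The 8 genes that did not pass in TLR7-treated cells were Ccnb2, Plk1, Bub1, Ube2c, Cenpa, Cenpe, Cenpf and Hmmr. Several of them had large fold changes with wide errors. Ccnb2 had 1.73 (SE 0.81, adjusted p = 0.0862) and Ube2c 1.61 (SE 0.73, adjusted p = 0.0781), with no overlap between the times in either. Cenpa had 0.81 (SE 0.77, adjusted p = 0.399), and there TLR7 24 h replicate 3, at 244 CPM, was above all the 72 h libraries. Plk1, the Polo-like kinase, had 1.33 (SE 0.56, adjusted p = 0.0599). When the middle libraries were left out all 8 passed, with log2 fold changes such as 5.66 (SE 0.38, adjusted p = 5.87e-08) for Ccnb2 and 4.45 (SE 0.35, adjusted p = 1.86e-07) for Cenpa.

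In TLR2-treated cells 6 of the 36 genes rose and 2 fell between 24 h and 72 h, against 21.7% and 17.4% of all genes tested, so the set did not move as one. The median log2 fold change was 0.35, and 23 genes were positive and 13 negative. In 16 genes all libraries at 72 h were above those at 24 h and in 6 all were below, against 27% and 24% of all genes. Cyclin B2, which partners CDK1, was highest in change: Ccnb2 was at 24.8, 44.3, 21.1 and 27.5 CPM in TLR2 72 h, against 3.09, 4.31, 3.01 and 2.51 CPM in TLR2 24 h, a log2 fold change of 3.17 (SE 0.88, adjusted p = 0.0129). Cenpa, the histone variant that marks centromeres, was at 111, 178, 69.9 and 121 CPM in TLR2 72 h, against 15.0, 13.3, 15.0 and 11.5 CPM in TLR2 24 h, 3.13 (SE 0.83, adjusted p = 0.0113). Ube2c was at 46.0, 81.9, 44.4 and 52.0 CPM in TLR2 72 h, against 12.8, 11.6, 11.6 and 8.95 CPM in TLR2 24 h, 2.31 (SE 0.76, adjusted p = 0.0247). In each of the 3 genes the lowest library at 72 h was above the highest at 24 h. Nusap1, a spindle microtubule protein, rose by 1.87 (SE 0.64, adjusted p = 0.0291), Plk1 by 1.48 (SE 0.57, adjusted p = 0.0453) and Cdc20, the activator of the APC/C, by 0.71 (SE 0.28, adjusted p = 0.0497).

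In TLR2-treated cells 2 genes went the other way. Cdk1 itself was at 82.8, 63.6, 95.6 and 54.6 CPM in TLR2 72 h, against 137, 152, 149 and 126 CPM in TLR2 24 h, and its log2 fold change was -0.93 (SE 0.26, adjusted p = 0.0147). Mad2l1, the MAD2 protein of the spindle checkpoint, was at 78.1, 59.4, 84.0 and 54.7 CPM in TLR2 72 h, against 111, 156, 116 and 109 CPM in TLR2 24 h, -0.83 (SE 0.23, adjusted p = 0.0131). Cdk1 and Mad2l1 were thus lower at 72 h in every library, while Ccnb2, the partner of CDK1, was higher in every library. Ccna2, Birc5, Ttk (the checkpoint kinase MPS1) and Nuf2 (a subunit of the NDC80 kinetochore complex) were also below in all 4 libraries without passing the test, at -0.83, -0.47, -0.63 and -0.74 on the log2 scale. The number past the test was 4, 5, 5 and 4 without TLR2 24 h replicates 1, 2, 3 and 4, 2 without TLR2 72 h replicate 2, and 5 without the shallow libraries. In these 6 fits 8.23% to 17% of all genes rose and 1.07% to 11.4% fell. Without the middle libraries, which leaves 1 library in TLR2 72 h, 17 rose and 2 fell (24% and 19.4% of all genes).

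In cells given peptide alone 11 of the 36 genes rose between 24 h and 72 h and 0 fell, against 8.17% of all genes that rose and 10.4% that fell. The median log2 fold change was 0.95, 34 genes were positive, and in 22 all libraries at 72 h were above all at 24 h, against 6.79% of all genes. Cenpa was at 216, 444, 271 and 209 CPM in OVA 72 h, against 126, 16.8, 55.5 and 16.0 CPM in OVA 24 h, and had the largest change, 2.41 (SE 0.80, adjusted p = 0.0436). Mki67 was at 541, 962, 430.1 and 666 CPM in OVA 72 h, against 368, 182, 288 and 126 CPM in OVA 24 h, 1.43 (SE 0.49, adjusted p = 0.0485). Both were higher in all 4 libraries at 72 h. Nusap1 rose by 1.83 (SE 0.64, adjusted p = 0.0492) and Plk1 by 1.61 (SE 0.56, adjusted p = 0.0497). The other 7 were Cdc25c at 1.32, Cenpe, a kinetochore motor, at 1.21, Anln at 1.19, Aurka, the centrosomal Aurora A kinase, at 1.17, Ccnb1, cyclin B1, at 0.96, Cdc20 at 0.94 and Dlgap5, a spindle protein that stabilises kinetochore fibres, at 0.81. These calls were close to the threshold: the count was 0 without OVA 24 h replicate 2, OVA 24 h replicate 4, OVA 72 h replicate 1, 2 or 3, or the shallow libraries, where 0% to 0.494% of all genes rose, and 6 without OVA 24 h replicate 3 (6.92%). It was 27 without the middle libraries, where 26.3% of all genes rose.

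**Figure D4:**
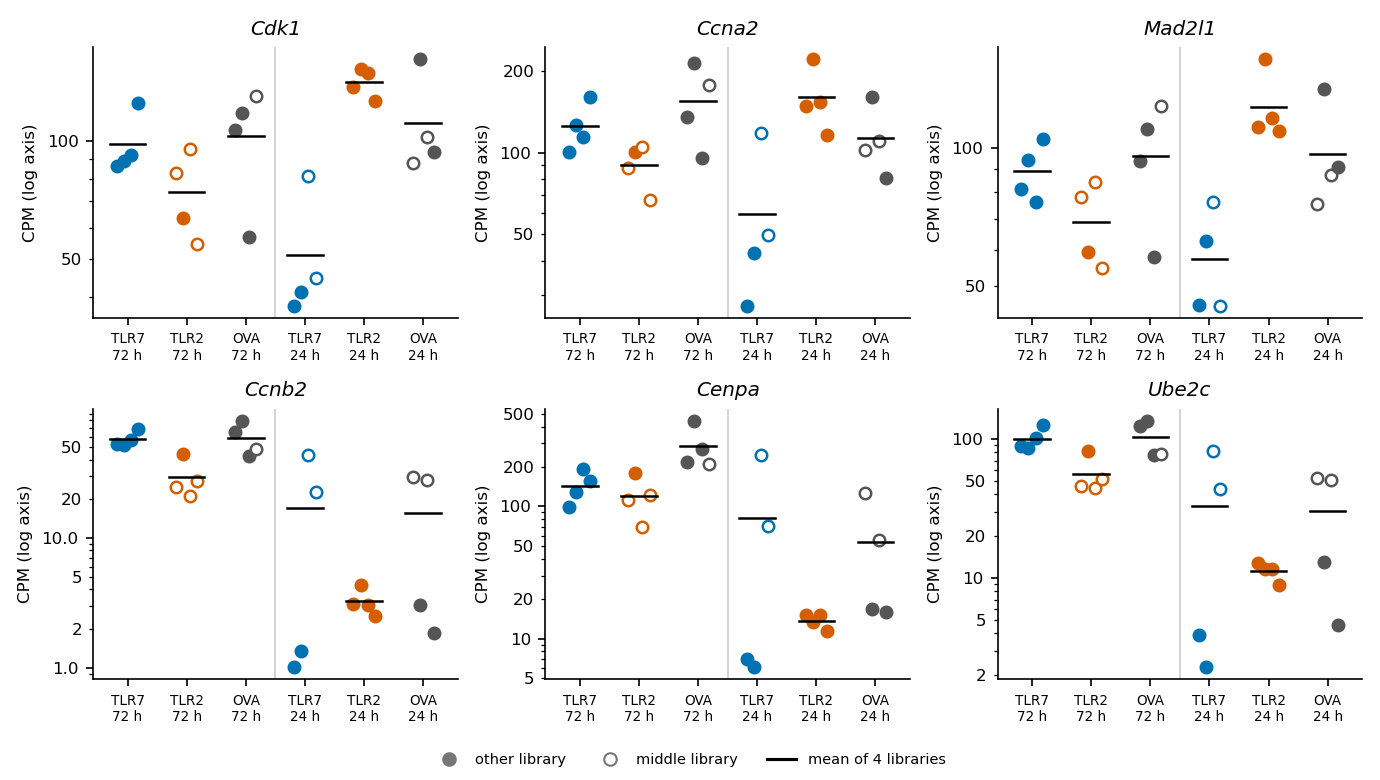
CPM on a log axis of Cdk1, Ccna2, Mad2l1, Ccnb2, Cenpa and Ube2c, 1 point per library, by group; the line is the mean of 4 libraries and open circles are middle libraries. Ccnb2, Cenpa and Ube2c are near their lowest in the clear 24 h libraries, where Ccnb2 is at 1.01 to 4.31 CPM, while the group means of Cdk1, Ccna2 and Mad2l1 are highest in TLR2 24 h and lowest in TLR7 24 h.

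Among the 16 clear libraries, 22 of the 36 genes were higher in all 8 at 72 h than in all 8 at 24 h, against 21.2% of all genes, 14 overlapped, and 0 were lower in all, against 19% of all genes. This is a description, since the middle libraries were set aside on a component that follows time. The ratio of the median at 72 h to the median at 24 h was 19.8 for Ccnb2, 13.0 for Cenpa, 9.27 for Ube2c, 8.60 for Nusap1, 6.44 for Plk1, 5.04 for Hmmr, a spindle pole protein, and 4.48 for Cdca3. It lay between 1.19 and 3.55 for 22 others, among them Prc1, Cenpf, a kinetochore protein, Kif11, the motor that pushes spindle poles apart, Tpx2, which activates Aurora A on the spindle, Kif2c, which shortens kinetochore microtubules, Ndc80, of the outer kinetochore, and Top2a. At the other end it was 1.04 for Kif20a, 1.02 for Nuf2, 0.906 for Ccna2, 0.898 for Bub1, 0.882 for Ttk, 0.798 for Mad2l1 and 0.686 for Cdk1. Of the 4 checkpoint genes 3 were thus among the 5 lowest, while Bub1b, which encodes the checkpoint inhibitor BubR1, had 1.34.

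At 24 h, TLR7-treated cells were set against TLR2-treated cells. Of the 36 genes 5 were lower with the TLR7 agonist and 0 higher, against 0.604% of all genes that were lower and 0.632% that were higher; the median log2 fold change was -0.26. Cdk1 was at 38.0, 41.1, 81.3 and 44.5 CPM in TLR7 24 h, against 137, 152, 149 and 126 CPM in TLR2 24 h, -1.46 (SE 0.27, adjusted p = 0.0171). Nuf2 was at 11.6, 12.7, 36.6 and 17.5 CPM in TLR7 24 h, against 46.0, 63.7, 51.5 and 37.0 CPM in TLR2 24 h, -1.33 (SE 0.30, adjusted p = 0.0302). Mad2l1 was at 45.6, 62.6, 76.0 and 45.3 CPM in TLR7 24 h, against 111, 156, 116 and 109 CPM in TLR2 24 h, -1.10 (SE 0.23, adjusted p = 0.0239). In these 3 genes every TLR7 library was below every TLR2 library. The same held for Ttk, which was at 8.96, 11.0, 23.5 and 11.2 CPM in TLR7 24 h, against 27.6, 33.8, 28.1 and 24.1 CPM in TLR2 24 h, -1.06 (SE 0.26, adjusted p = 0.0463). Ccna2 was at 27.4, 42.7, 118 and 49.8 CPM in TLR7 24 h, against 149, 221, 154 and 116 CPM in TLR2 24 h, -1.43 (SE 0.34, adjusted p = 0.0448), with TLR7 replicate 3 inside the TLR2 range. Birc5 did not overlap either, at -1.26 (SE 0.34, adjusted p = 0.0666). With it, 5 of the 36 genes were below in every library, against 8.51% of all genes.

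Which genes passed at 24 h depended on the libraries. TLR7 24 h replicates 1 and 2 were low for the whole set, whereas replicates 3 and 4, which are middle libraries, were high for Ccnb2, which was at 1.01, 1.34, 43.5 and 22.5 CPM in TLR7 24 h, against 3.09, 4.31, 3.01 and 2.51 CPM in TLR2 24 h. Of the 36 log2 fold changes 13 were positive. The number past the test was 11 without TLR7 24 h replicate 3, all lower, against 0.56% of all genes. It was 0 without TLR7 24 h replicate 4, TLR2 24 h replicate 1, TLR2 24 h replicate 4 or the shallow libraries, where 0% to 0.0473% of all genes were lower. It was 1, lower, without TLR2 24 h replicate 2 (0.223%) and 1, lower, without TLR2 24 h replicate 3 (0.142%). Some genes passed as higher in 2 fits. Without TLR7 24 h replicate 1, 2 were higher and 3 lower, against 2.91% and 0.676% of all genes. Without TLR7 24 h replicate 2, 1 was higher and 3 lower, against 3.4% and 0.852%. Without the 8 middle libraries 23 of the 36 were lower and all 36 negative, with a median of -1.46, against 0.803% of all genes that were lower; TLR7 24 h then holds 2 libraries. Birc5 was then at -2.29 (SE 0.34, adjusted p = 0.00725), Cdca3 at -2.18 (SE 0.35, adjusted p = 0.00944), Ccna2 at -2.13 (SE 0.38, adjusted p = 0.0135) and Aurkb at -2.06 (SE 0.28, adjusted p = 0.00694).

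Against peptide alone at 24 h, 0 of the 36 genes passed in TLR7-treated cells in edgeR's quasi-likelihood test, where 0.22% of all genes did. At an unadjusted p under 0.05 there were 9, all lower, and DESeq2 called 2, both lower, where it called 0.694% of all genes lower. The median log2 fold change was -0.35, and 30 genes were negative. Cdk1 was nearest to the threshold, at 38.0, 41.1, 81.3 and 44.5 CPM in TLR7 24 h, against 87.6, 162, 102 and 93.9 CPM in OVA 24 h, -1.12 (SE 0.27, adjusted p = 0.0773). It was also the one member below in every library, against 3.03% of all genes. Leaving out TLR7 24 h replicate 3 alone made 10 genes pass, all lower, against 0.479% of all genes. With the middle libraries left out 15 were lower, with a median of -1.31, against 1.22% of all genes. Among them were Birc5 at -2.01 (SE 0.36, adjusted p = 0.0132), Cdca3 at -1.97, Aurkb at -1.87 (SE 0.30, adjusted p = 0.00884) and Nuf2 at -1.80. The comparisons with TLR2 and with OVA at 24 h use the same TLR7 libraries.

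Among the 8 clear 24 h libraries, all 36 genes were lower in the 2 of TLR7 than in each of the 6 of TLR2 and OVA, against 12.7% of all genes. The mean of the 6 was 1.37 times (Aurka) to 4.81 times (Birc5) that of the 2, with 4.46 for Cdca3, 4.20 for Ccna2 and 4.17 for Aurkb. This too is a description, since the middle libraries were set aside on a component that follows time. That left out TLR7 24 h replicates 3 and 4, with scores of 6.01 and 5.01, and OVA 24 h replicates 1 and 3, while TLR2 24 h kept all 4 libraries. The 36 genes also moved together (median pairwise r of 0.873 across 24 libraries), so they are not 36 separate results. Of the 2 TLR7 libraries 1 is shallow, and so are 2 of the other 6. B cell markers were also lower in TLR7 24 h than in the other 24 h groups, and their part in the result was not tested.

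**Figure D5:**
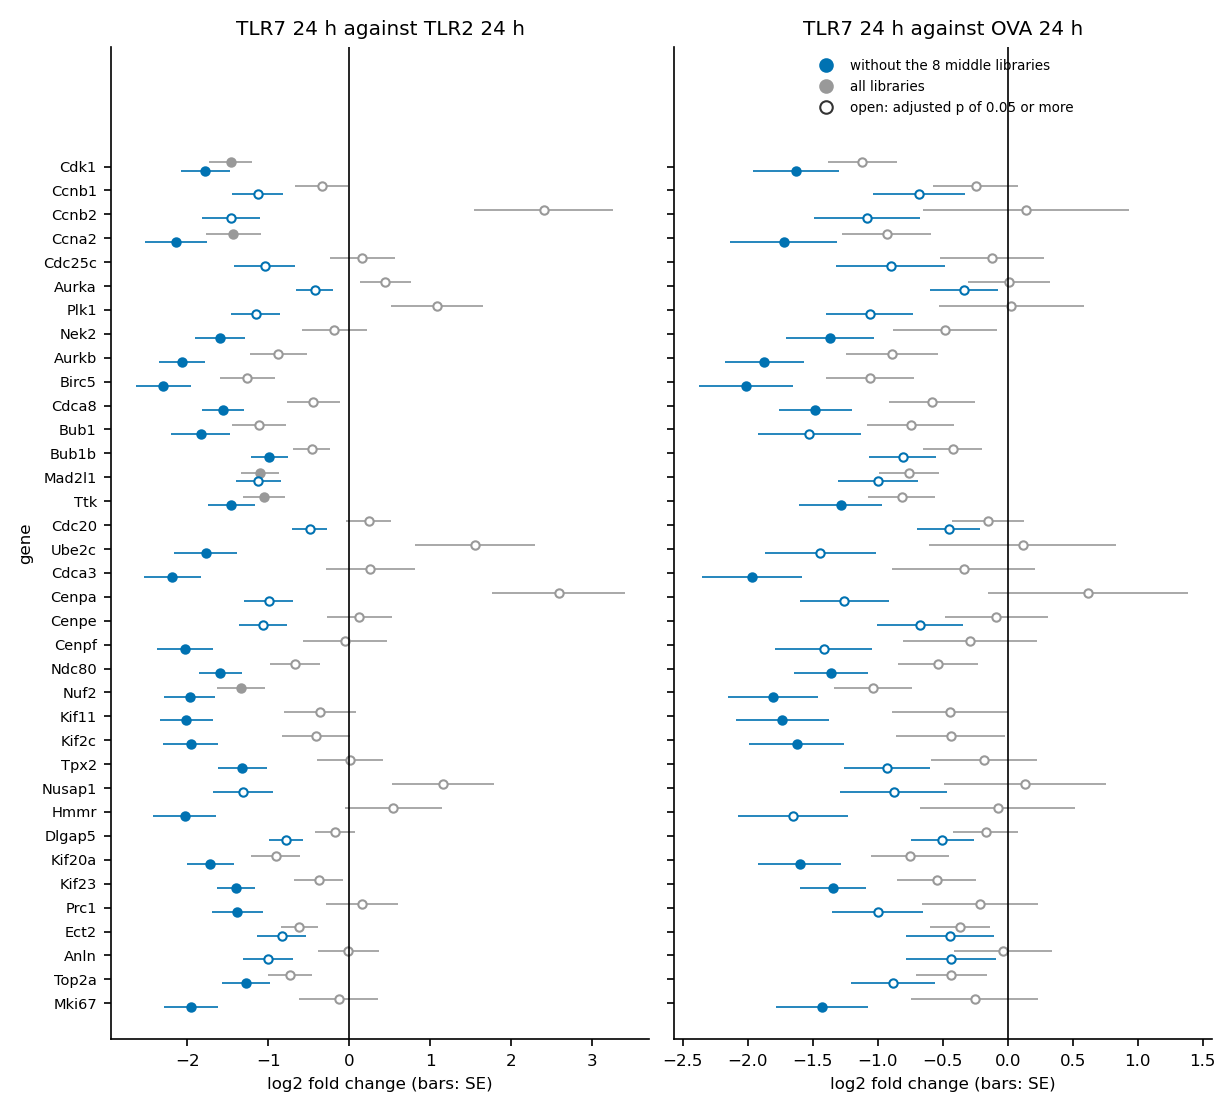
Log2 fold change with its SE (bars) of each of the 36 genes in TLR7 24 h against TLR2 24 h and against OVA 24 h, with all libraries (grey) and without the 8 middle libraries (blue); open symbols have an adjusted p of 0.05 or more. Without the middle libraries, which leaves 2 libraries in TLR7 24 h, all 36 genes lie below 0 in both comparisons.

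The TLR2 agonist was not seen to change the set at 24 h: against peptide alone 0 of the 36 genes passed in edgeR or in DESeq2. In edgeR 2 had an unadjusted p under 0.05, both lower, and 0% of all genes passed. In DESeq2 0.13% of all genes were higher and 2.24% lower. The median log2 fold change was -0.11, with 14 genes positive and 22 negative. Ccnb2 and Cenpa had the largest differences, -2.26 (SE 0.85, adjusted p = 0.241) and -1.97 (SE 0.80, adjusted p = 0.265), and these move with OVA 24 h replicates 1 and 3, which are middle libraries: Cenpa was at 15.0, 13.3, 15.0 and 11.5 CPM in TLR2 24 h, against 126, 16.8, 55.5 and 16.0 CPM in OVA 24 h. With the 8 middle libraries left out 0 passed (0% of all genes), 35 of the 36 were positive and the median was 0.28.

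At 72 h the set stood lowest in TLR2-treated cells, without a gene past the test in any comparison. The summed B cell markers had a median of 8.35 CPM in TLR7 72 h, 50.4 CPM in TLR2 72 h and 26.0 CPM in OVA 72 h, and their part in this result was not tested. TLR7 72 h against TLR2 72 h gave a median log2 fold change of 0.51, and all 36 genes were positive. In 17 genes every TLR7 library was above every TLR2 library, against 12.9% of all genes. None passed in edgeR or in DESeq2. In edgeR 6 had an unadjusted p under 0.05, all higher, and 4.8% of all genes passed. In DESeq2 3.73% of all genes were higher and 6.72% lower. Aurka had the lowest adjusted p, at 41.5, 41.3, 45.2 and 56.9 CPM in TLR7 72 h, against 23.1, 31.8, 21.7 and 26.6 CPM in TLR2 72 h, 0.84 (SE 0.32, adjusted p = 0.106). Aurkb was at 71.6, 74.0, 70.7 and 84.4 CPM in TLR7 72 h, against 43.6, 41.9, 40.3 and 34.2 CPM in TLR2 72 h, 0.91 (SE 0.35, adjusted p = 0.113). Neither gene overlapped between the groups. With only these 8 libraries in the model, 20 of the 36 genes passed, all higher, against 12.2% of all genes that were higher. When the middle libraries were left out, 1 library remained in TLR2 72 h, 0 passed (0% of all genes) and the median was 0.35.

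TLR2 72 h against OVA 72 h gave a median log2 fold change of -0.73, and all 36 genes were negative. In 9 genes every TLR2 library was below every OVA library, against 3.31% of all genes; these were Aurka, Plk1, Aurkb, Cdca8, Cdc20, Cenpa, Ndc80, Kif2c and Kif23. None passed in edgeR or in DESeq2. In edgeR 19 had an unadjusted p under 0.05, all lower, and 0% of all genes passed. In DESeq2 0.185% of all genes were higher and 0.378% lower. Bub1b and Top2a shared the lowest adjusted p. Bub1b was at 65.1 ± 7.44 CPM in TLR2 72 h and 103 ± 24.9 CPM in OVA 72 h (SD, n = 4 each), -0.66 (SE 0.23, adjusted p = 0.334), and Top2a at 458 ± 54.7 CPM in TLR2 72 h and 782 ± 268 CPM in OVA 72 h, -0.77 (SE 0.27, adjusted p = 0.334). Without the middle libraries, which leaves 1 library in TLR2 72 h, all 36 stayed negative with a median of -0.51, 0 passed and 2 had an unadjusted p under 0.05, Plk1 and Aurkb. TLR7 72 h against OVA 72 h gave a median of -0.16, with 7 genes positive and 29 negative. None passed in edgeR or in DESeq2. In edgeR 1 had an unadjusted p under 0.05, which was lower, and 3.62% of all genes passed. In DESeq2 1.61% of all genes were higher and 4.8% lower. Cenpa, at 99.6, 129, 191 and 156 CPM in TLR7 72 h, against 216, 444, 271 and 209 CPM in OVA 72 h, was the one member below in every library (5.29% of all genes), -0.99 (SE 0.77, adjusted p = 0.545). Cenpa passed without the middle libraries, at -1.05 (SE 0.23, adjusted p = 0.0344), where 1.52% of all genes were lower. The 3 comparisons at 72 h share libraries in pairs.

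Whether an agonist acted differently at the 2 times was tested as the difference between its effects. For TLR7 against peptide alone, 0 of the 36 genes passed in edgeR or in DESeq2. In edgeR 3 had an unadjusted p under 0.05, all higher, the median was 0.11, and 0.81% of all genes passed. In DESeq2 0.859% of all genes were higher and 2.28% lower. Leaving out the middle libraries made 2 pass, Aurkb at 1.90 (SE 0.37, adjusted p = 0.0463) and Birc5 at 2.25 (SE 0.44, adjusted p = 0.0477), against 0.0506% of all genes that were higher. For TLR2 against peptide alone, 0 passed in edgeR or in DESeq2. In edgeR 10 had an unadjusted p under 0.05, all lower, the median was -0.63, and 0% of all genes passed. In DESeq2 0.0137% of all genes were higher and 0% lower. Without the middle libraries 0 passed, 2 had an unadjusted p under 0.05, Aurkb and Kif2c, both lower, and the median was -0.70. A further difference, between the change over time with the TLR7 agonist and that with the TLR2 agonist, was added after the data were seen. It was past the test and positive for 4 genes, against 0.44% of all genes: Birc5 at 2.16 (SE 0.48, adjusted p = 0.0393), Nuf2 at 1.93 (SE 0.42, adjusted p = 0.0393), Cdk1 at 1.86 (SE 0.37, adjusted p = 0.0332) and Mad2l1 at 1.46 (SE 0.32, adjusted p = 0.0393). Of the 36 differences 31 were positive. The count past the test was 3 without the middle libraries (0.183% of all genes), 13 without TLR7 24 h replicate 3 (0.804%), 1 without TLR2 24 h replicate 2 (0.386%) or TLR2 72 h replicate 1 (0.128%), and 0 without TLR7 24 h replicate 1, 2 or 4, TLR7 72 h replicate 1, 2 or 4, TLR2 24 h replicate 1, 3 or 4, TLR2 72 h replicate 4 or the shallow libraries (0% to 0.0812%).

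The genes of the set moved together from library to library. The median Pearson correlation of log2 CPM over the 630 pairs was 0.873 across 24 libraries, and 0.872 after group means were taken out; the libraries share depth and the difference in time, and the values are a description. Mki67 followed the other 35 most closely (r = 0.99), and Mad2l1 (r = 0.31) and Cdk1 (r = 0.42) least. Outside the set, the 10 tested genes with the highest correlation with the score were Cdca2 at 0.992, Ckap2l at 0.991, Spag5 at 0.986, Racgap1 at 0.982, Foxm1 at 0.978, Kif18b at 0.973, Parpbp at 0.972, Zdhhc2 at 0.971, Aspm at 0.970 and Neil3 at 0.970, over 24 libraries.

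Other G2/M genes, a list of 90 symbols of which 85 were tested, rose with time in TLR7-treated cells, where 52 were higher and 1 lower with a median log2 fold change of 0.88, against 19% and 24.2% of all genes; the lower one was Zwint, a kinetochore protein, at -0.99. Cenpp, a kinetochore subunit, rose by 2.19 and Fam64a by 2.06. In TLR2-treated cells 7 were higher (8.24%) and 24 lower (28.2%), against 21.7% and 17.4% of all genes, with a median of -0.33: Psrc1, a spindle protein, was at 3.12 and Pbk, a mitotic kinase, at -1.57. In cells given peptide alone 11 were higher and 3 lower, against 8.17% and 10.4% of all genes, with a median of 0.42, led by Cdc25b, a CDK1-activating phosphatase, at 1.87. At 24 h, 12 were lower and 1 higher in TLR7 than in TLR2 (0.604% and 0.632% of all genes), among them Pbk at -1.69 and Psrc1, the one higher, at 2.38. At 72 h, 5 were higher in TLR7 than in TLR2 and 0 lower (0.859% and 3.94% of all genes), led by Spc24, of the NDC80 complex, at 0.95. With the middle libraries left out the counts were 59 higher and 3 lower for time in TLR7, 18 and 11 in TLR2 and 30 and 9 in OVA, 1 and 30 for TLR7 against TLR2 at 24 h, and 0 at 72 h; of all genes 26.7%, 24% and 26.3% then rose with time in TLR7, TLR2 and OVA, and 0.803% were lower in TLR7 than in TLR2 at 24 h. The promoters of 72 of these genes held a CHR in 63.9% and a CHR with a CCAAT in 44.4%.

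Of 18 regulators of these promoters, from the FOXM1, MYBL2, MuvB and DREAM group and the E2F family, 5 rose (27.8%) and 3 fell (16.7%) with time in TLR7, against 19% and 24.2% of all genes. In TLR2 2 rose (11.1%) and 9 fell (50%), against 21.7% and 17.4%, and in OVA 1 rose and 1 fell, against 8.17% and 10.4%. Foxm1, the activator of late cell-cycle genes, had log2 fold changes over time of 1.47 (SE 0.45, adjusted p = 0.0135) in TLR7, 0.58 (SE 0.44, adjusted p = 0.289) in TLR2 and 0.98 (SE 0.44, adjusted p = 0.103) in OVA, so that only the change in TLR7 passed. The difference between its changes in TLR7 and TLR2 did not pass, 0.90 (SE 0.62, adjusted p = 0.481). Mybl2, which works earlier with MuvB, was at -1.35 (SE 0.28, adjusted p = 0.00778) with time in TLR2, at 0.50 (SE 0.28, adjusted p = 0.140) in TLR7 and at -0.67 (SE 0.27, adjusted p = 0.0795) in OVA. At 24 h Mybl2 was lower in TLR7 than in TLR2, -1.63 (SE 0.28, adjusted p = 0.0171), as were E2f8 at -1.75 and E2f7 at -1.38, repressors of G1/S genes. Rbl2, which encodes the p130 subunit of DREAM, rose with time by 1.56 in TLR7 and 1.96 in TLR2.

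Of 15 genes that hold the cycle back, 5 rose (33.3%) and 2 fell (13.3%) with time in TLR7, against 19% and 24.2% of all genes. In TLR2 6 rose (40%) and 2 fell (13.3%), against 21.7% and 17.4%, and in OVA 5 rose (33.3%) and 1 fell (6.67%), against 8.17% and 10.4%. Cdkn1a, the CDK inhibitor p21, was higher in TLR7 than in TLR2 at 24 h, 1.71 (SE 0.36, adjusted p = 0.0249). Its log2 fold changes over time were 2.29 (SE 0.37, adjusted p = 0.00778) in TLR2, 0.84 (SE 0.35, adjusted p = 0.0581) in TLR7 and 0.55 (SE 0.35, adjusted p = 0.241) in OVA. Fbxo5, the APC/C inhibitor EMI1, was lower in TLR7 than in TLR2 at 24 h, -1.60. Ccng2, a cyclin linked to cell-cycle arrest, rose by 3.47 in TLR2 and 2.23 in OVA. At 72 h, Gadd45b, a stress-induced gene, was lower in TLR7 than in TLR2, -2.04, and Btg2, an antiproliferative gene, was lower in TLR7 than in OVA, -1.71.

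The 50 G1/S and replication genes did not follow the mitotic set over time. With time 47 fell and 0 rose in TLR2 (median log2 fold change -1.14), 18 fell and 0 rose in OVA (-0.78), and 7 fell and 4 rose in TLR7 (-0.28), where 17.4%, 10.4% and 24.2% of all genes fell. Ccne2, cyclin E2, fell in TLR2, at -2.03, and Orc1, of the origin recognition complex, fell in OVA, at -1.60. At 24 h, 9 were lower in TLR7 than in TLR2 and 0 higher, with a median of -0.88, led by Rrm2, a ribonucleotide reductase subunit, at -2.04. The G1/S score was 6.04 ± 0.19 in TLR7 72 h, 6.06 ± 0.59 in TLR2 72 h, 6.06 ± 0.57 in OVA 72 h, 6.26 ± 0.28 in TLR7 24 h, 7.22 ± 0.05 in TLR2 24 h and 6.81 ± 0.37 in OVA 24 h (SD, n = 4 each). The score of the mitotic set minus the G1/S score was 0.10 ± 0.16 in TLR7 72 h, -0.51 ± 0.78 in TLR2 72 h and 0.23 ± 0.55 in OVA 72 h. This difference was -1.71 ± 1.35 in TLR7 24 h, -2.12 ± 0.18 in TLR2 24 h and -1.59 ± 0.83 in OVA 24 h. Leaving out the middle libraries, 43 G1/S genes fell and 1 rose in OVA, and 24 fell and 4 rose in TLR7. Of all genes 22.3% then fell and 26.3% rose in OVA, and 25.4% fell and 26.7% rose in TLR7. In TLR2, where 1 library remained at 72 h, the median log2 fold change of the G1/S genes was -1.97.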

How the data were processed

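The authors deposited RSEM-style expected counts per gene, 1 table per library, that were not scaled between libraries; 28.7% of the values above 0 are not whole. Per the submitters' processing notes, STAR, RSEM and edgeR were used on build GRCm38; the sources used here do not give their versions and settings or the strand of counting. Per the labels' protocols, libraries were made from poly-A RNA with a stranded kit.

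Expected counts were rounded and tested with edgeR 4.0.16 (R 4.3.3, limma 3.58.1): TMM scaling, filterByExpr (minimum count 10, minimum total 15), a quasi-likelihood F test with 1 term per group over 24 libraries (18 residual degrees of freedom, common biological coefficient of variation 0.321), and Benjamini-Hochberg adjustment over all 14560 genes tested, with calls at an adjusted p under 0.05. CPM used TMM-scaled totals, and log2 CPM a prior count of 2. Middle libraries had an absolute score on the first principal component under 0.4 of the largest. Exon overlaps and lengths came from GENCODE annotation on GRCm38 and promoter sequences from RefSeq. Totals of 10.5 to 27.1 M (mega) counts set the precision. The procedure was tested on simulated data.

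Groups and replicate numbers came from the labels. Tests covered 9 pairs of groups and 2 agonist effects compared between times, plus 1 difference added later. Same-numbered replicates did not deviate together in every pair, so numbers were not taken as pairs. All 36 members are named, with values in every library for genes a result turns on and up to 4 of the largest changes past the threshold per comparison and direction; Foxm1, Mybl2 and Cdkn1a are always given. The members and lists were chosen with earlier results of these data known. Alternatives were other scalings and filters, a replicate block, only the groups compared, DESeq2 1.42.0, and fits without the 8 middle, the 5 shallow, or each single library.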

Additional observations from a re-analysis of the deposited data

Results flagged for a closer look

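In groups of 4 libraries, a value was marked where the gap between the highest or lowest library and its nearest neighbour, as a share of the group's whole range of log2 CPM, was above Dixon's 95% critical value. Chance marks about 1 in 20 groups, and 37 measures (the 36 genes and the score) were looked at in each of 6 groups. TLR7 72 h replicate 4 was high for Cdk1 (gap 0.829 of the range), Birc5 (0.870), Cdc20 (0.867) and Nuf2 (0.866); its Birc5 level was 6.74 log2 CPM, and the other 3 libraries were at 6.04 to 6.13. TLR2 72 h replicate 2 was high for Ccnb1 (0.867), Kif2c (0.900), Tpx2 (0.982) and Prc1 (0.862); its Prc1 level was 6.24 log2 CPM, and the others were at 5.53 to 5.62. TLR2 72 h replicate 4 was low for Kif20a (0.871), OVA 72 h replicate 3 for Birc5 (0.877) and OVA 24 h replicate 4 for Top2a (0.937). Single libraries were thus marked in 11 of 222 combinations of measure and group, about the 11.1 that 1 in 20 gives.

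The change over time differed between the TLR7 and the TLR2 agonist, by the test of the difference itself, in 4 genes: Birc5 (log2 difference 2.16), Nuf2 (1.93), Cdk1 (1.86) and Mad2l1 (1.46). In each the log2 fold change over time was positive in TLR7 and negative in TLR2. This difference was added after the data were seen, and the count of genes past its test was not stable. It was 1 with the replicate block, 0 without the 5 shallow libraries and 0 to 13 when single libraries were left out.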

How the results depend on the processing

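Counts of members past the test, and medians, moved under these alternatives. With no scaling beyond library size there were 3 for TLR7 24 h against TLR2 24 h, all lower, where 0.495% of all genes were lower. There were 5 for time in OVA, all higher (5.94% of all genes), and Cenpf in the first of these comparisons reversed to 0.047. With RLE scaling Tpx2 reversed there, to -0.0073. With no filter on low counts there was 1 for time in OVA, higher, against 1.36% of all genes. Same-numbered replicates did not deviate together in every pair, and whether the numbers pair the libraries is not known. With the replicate block there were 6 for time in OVA, all higher (7.75% of all genes). The added difference was then positive for 1 (0.247%), and Tpx2 in TLR7 24 h against TLR2 24 h was -0.046. With only the groups compared, 12 rose with time in TLR7 (19% of all genes) and 0 passed in OVA (0%). In TLR2 17 rose and 6 fell (27.5% and 20.9%). In that setting 20 were higher in TLR7 72 h than in TLR2 72 h (12.2%), and 2 were lower in TLR7 24 h than in TLR2 24 h (1.57%). With DESeq2 there were 13 for time in TLR2, 8 higher and 5 lower (22.8% and 21.1% of all genes). In OVA there were 19, all higher (11.7%). DESeq2 called 9 for TLR7 24 h against TLR2 24 h, 1 higher and 8 lower (4.9% and 2.08%), with Tpx2 at -0.0090. It called 2 against OVA 24 h, both lower (0.694%), and 8 for the added difference, all higher (1.6%). Without the 8 middle libraries, which widens time differences by construction, the median for time was 2.38 in TLR7, 0.75 in TLR2 (19 called) and 1.45 in OVA (27 called). It was -1.46 for TLR7 24 h against TLR2 24 h (23 called), with Ube2c at -1.77, Cdca3 at -2.18, Tpx2 at -1.32, Hmmr at -2.03 and Prc1 at -1.38, and -1.31 against OVA 24 h (15 called). There was 1 for TLR7 72 h against OVA 72 h, the TLR7 effect differed between times by a median of 1.07 (2 called), and the added difference by 1.78. Without the 5 shallow libraries there were 0 for time in TLR7 (0.0134% of all genes rose) and 0 in OVA (0%). In TLR2 3 rose and 2 fell (14.2% and 4.88%). There were 0 for TLR7 24 h against TLR2 24 h and 0 for the added difference (0% of all genes in both). In the first of these Cenpf was 0.11 and Mki67 0.054. The cause of these shifts was not tested.

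Leaving out single libraries, counts for time ranged from 11 to 36 in TLR7, 2 to 8 in TLR2 and 0 to 14 in OVA. The 11 and the 36 in TLR7 all rose, where 9.47% and 21.4% of all genes rose. The 2 in TLR2 rose (8.23%), and of the 8, 5 rose and 3 fell (20.8% and 14.3%). The 14 in OVA rose (12.7%). Counts ranged from 0 to 11 for TLR7 24 h against TLR2 24 h, and the 11 were all lower (0.56% of all genes). In that comparison 2 were higher and 3 lower without TLR7 24 h replicate 1 (2.91% and 0.676% of all genes). Without TLR7 24 h replicate 2, 1 was higher and 3 lower (3.4% and 0.852%). Counts ranged from 0 to 10, all lower, against OVA 24 h (0.479% at 10) and from 0 to 13 for the added difference (0.804% at 13). The median TLR7 effect between times ranged from -0.14 to 0.86. For TLR7 24 h against TLR2 24 h the genes whose sign turned ranged from -0.584 to 0.280 (Tpx2), -0.888 to 0.278 (Cenpf), -0.999 to 0.199 (Mki67), -0.76 to 0.10 (Nek2), -0.569 to 0.613 (Cdca3), -0.321 to 0.907 (Hmmr) and -0.464 to 0.457 (Prc1), and against OVA 24 h from -1.21 to 0.019 (Cdca3) and -1.17 to 0.077 (Mki67), all on the log2 scale. Of the 24 libraries 5 limit the precision by depth.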
